A study of Arabidopsis thaliana and Arabidopsis thaliana x Arabidopsis arenosa with 9 samples.

Results

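Reads were counted per transcript locus in seeds of Arabidopsis thaliana at 3 days after pollination, and each of the 2 reciprocal crosses has a replicate 1 column and a further replicate 1 column whose name carries the mark N. The mark is not explained in the sources used here. The comparison below sets the 2 columns marked N against the 2 unmarked replicate 1 columns, paired by cross, and asks which seed transcripts are depleted or gained in the marked ones. A locus was included when it had 10 or more reads in at least 2 of these 4 columns, which kept 16346 of the 33602 loci in the table. Of these, 14042 had 10 or more reads in all 4 columns, 65 were included through the marked columns alone and 78 through the unmarked columns alone. Another 10365 loci had 0 reads in all 4 columns, and 6891 had reads but stayed under the minimum.

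In ColA9 X C24 the seed parent was the male-sterile line ColA9, of Col-0 background, and the pollen parent was wild-type C24. In C24A9 X Col-0 the male-sterile C24A9 line, of C24 background, received wild-type Col-0 pollen. Both seed parents were hemizygous for a construct that causes male sterility, so every seed compared here has a male-sterile mother. Poly-A RNA came from seeds dissected and pooled from many siliques, so each column is a mixture of seed coat, endosperm and embryo and each number is an average over them. With 1 column of each kind per cross, the p-values below measure the spread between these columns only, which may be technical.

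The unmarked columns held 6498145 (ColA9 X C24) and 6101597 (C24A9 X Col-0) reads, and the marked columns 3876803 and 3395442. Pairs of values below are always in this order of crosses. A count of 0 allowed up to 0.462, 0.492, 0.774 and 0.884 RPM (reads scaled to a column total of 1000000) in these 4 columns, in the same order and for counting error only. Summed over 8 seed coat markers, the level was 4693 and 5095 RPM in the unmarked columns and 3549 and 4457 in the marked ones. The most abundant of them, BAN, went from 2734 and 3482 to 1371 and 2131. In the test below 2 of the 8 were lower and 0 higher. The 7 endosperm markers summed to 46.6 and 57.5 unmarked against 90.8 and 120.5 marked. Of these, 6 were tested and 0 were lower or higher. Of 6 embryo markers 1 was at 0 in all 4 columns and 1 passed the read minimum, and the embryo regulator LEC1 had 8 and 13 reads unmarked and 3 and 4 marked. Pollen markers summed to between 1.80 and 10.3 RPM. The 3 leaf markers summed to 629.7 and 999.7 unmarked and 395.7 and 567.5 marked. In bulk seeds, fewer cells of a type and less RNA per cell cannot be told apart. Apart from the mark, both columns of a cross carry the same sample name, and a change in tissue make-up was not tested.

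A young seed is built from tissues of different origin. The seed coat grows from the maternal integuments, and its inner layer makes flavonoids that condense into tannins. The endosperm, which carries maternal and paternal genomes, is still dividing at this stage and is where most parent-of-origin effects on transcription occur, while the embryo is a small group of cells. Dividing seed cells need histones and ribosomal proteins in quantity, and expanding walls need secreted proteins such as lipid transfer proteins, arabinogalactan proteins and glycine-rich proteins. In a seed library a few of these transcripts usually take a large part of all reads.

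The 6 sequences here show the composition of transcripts at both ends of the comparison. The first is the whole annotated coding sequence of AT2G01021, the locus with the largest fall. The next 3 are the 100 coding bases richest in G and C of GRP5, TT4 and LTP6, which are among the largest falls. The last 2 are the same kind of window from AT4G09890 and AT1G66855, which are among the largest rises. All are RefSeq sequences of build TAIR10.1, read 5′ to 3′ on the strand of the gene, with every G and C in capitals. They lie at chr2:6571-6672 (plus strand), chr3:7140712-7140811 (minus), chr5:4489445-4489544 (plus), chr3:2664582-2664681 (minus), chr4:6218596-6218695 (plus) and chr1:24939878-24939977 (minus), in that order, all within exons.
AT2G01021: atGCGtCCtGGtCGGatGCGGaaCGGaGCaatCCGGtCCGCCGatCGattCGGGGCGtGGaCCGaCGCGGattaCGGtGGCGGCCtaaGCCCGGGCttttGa
GRP5: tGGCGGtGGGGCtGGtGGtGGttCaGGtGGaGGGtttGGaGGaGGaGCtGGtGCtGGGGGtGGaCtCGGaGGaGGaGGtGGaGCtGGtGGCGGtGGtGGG
TT4: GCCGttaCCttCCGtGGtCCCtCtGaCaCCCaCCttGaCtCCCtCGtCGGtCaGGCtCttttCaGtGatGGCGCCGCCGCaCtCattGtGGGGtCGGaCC
LTP6: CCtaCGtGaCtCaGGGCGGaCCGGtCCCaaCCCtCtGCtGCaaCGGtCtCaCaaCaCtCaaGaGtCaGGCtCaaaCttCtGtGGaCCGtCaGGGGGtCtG
AT4G09890: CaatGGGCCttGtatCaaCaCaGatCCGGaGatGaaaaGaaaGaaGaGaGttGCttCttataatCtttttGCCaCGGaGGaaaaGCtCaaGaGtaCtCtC
AT1G66855: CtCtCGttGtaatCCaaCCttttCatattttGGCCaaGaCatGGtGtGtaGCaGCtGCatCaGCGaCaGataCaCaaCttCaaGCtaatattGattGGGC

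G and C made up 67 of the 102 bases of AT2G01021. They made up 69%, 63% and 60% of the windows of GRP5, TT4 and LTP6, and 42% and 43% of those of AT4G09890 and AT1G66855. Glycine codons begin with GG, and GRP5 encodes a protein rich in glycine.

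Relative to the typical locus, 1266 loci were lower and 152 higher in the marked columns (edgeR quasi-likelihood test with cross as a block, adjusted p under 0.05, two-sided), which is 7.75% and 0.93% of the loci tested. Of the lower loci 15 had been included through the unmarked columns alone, that is only where they were high. Of the higher loci 0 had been included through the marked columns alone. With 10 or more reads required in all 4 columns, 1224 loci were lower and 187 higher. Unadjusted p was under 0.05 for 2089 lower and 1080 higher loci in the main test. The falls were larger: the median size was 1.04 on the log2 scale for the lower loci and 0.86 for the higher ones. A fall of at least 2-fold was fitted for 678 loci, of at least 4-fold for 124 and of at least 8-fold for 29, whereas 49 rises reached 2-fold and 0 reached 4-fold. The change was in the same direction in both crosses for 1257 of the 1266 lower loci and 150 of the 152 higher ones. It was larger in C24A9 X Col-0 for 1088 and 147 of them.

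The scale of these fold changes matters to how they read. The TMM scaling sets the typical locus near 0, and its values lie below those of the plain RPM scale by 0.68 in ColA9 X C24 and 1.05 in C24A9 X Col-0 (log2). All 152 higher loci also had more RPM in the marked column of both crosses, and 667 of the 1266 lower loci had fewer in both. With library totals as the only scaling the median over all loci was 0.91, 251 loci were lower and 8836 higher. All fold changes below are on the TMM scale unless RPM are named, and levels are in RPM, which is not corrected for transcript length.

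The higher calls rest on little. DESeq2 called 1 locus higher and 767 lower, and without cross in the model edgeR called 0 in either direction, with 28 higher and 687 lower at an unadjusted p under 0.05. A fit to all 6 columns, in which replicate 2 stood as a kind of its own, called 1 higher, the acetyltransferase gene NSI, and 412 lower, all of which were also lower in the 4-column fit. Without the unmarked ColA9 X C24 column that fit called 111 lower, without the unmarked C24A9 X Col-0 column 16, without the marked ColA9 X C24 column 159 and without the marked C24A9 X Col-0 column 11. Of the 57 called loci named in the text, 36 were past the threshold with all 6 columns, 9 to 22 with 1 of the replicate 1 columns left out as well and 0 without cross in the model, so the counts and tests below describe these 4 columns. Where the fit to all 6 columns ends the call of a locus, its adjusted p there is given beside the value.

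No locus passed 2378 RPM in the columns marked N. In ColA9 X C24 the 10 loci with most reads in the unmarked column of the other cross lay between 496 and 42252 RPM in the unmarked column, with a median of 9431, and between 247 and 1446, with a median of 894, in the marked one. In C24A9 X Col-0 they lay between 434 and 76740 (median 11755) unmarked and between 402 and 2378 (median 945) marked. The highest of the 10 was 85.2 and 177 times the lowest in the unmarked columns and 5.87 and 5.92 times in the marked ones. So 10 transcripts whose levels were spread over a wide range came to lie close together.

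Ranked the same way, the top 100 loci took 6.63% (95% Wilson interval 6.61 to 6.66) of the reads in the marked ColA9 X C24 column and 9.11% (9.08 to 9.14) in the marked C24A9 X Col-0 column. The unmarked shares were 27.6% and 36.3%, and those of replicate 2 were 20.9% and 25.2%. The top 10 went from 12.8% to 0.848% and from 20.9% to 1.08%. These intervals cover counting error only. At an equal depth of 3395442 reads, 17211 and 17071 loci would have 5 or more reads in the marked columns, against 16337 and 15302 in the unmarked ones.

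Loci of low level had more RPM in the marked columns and loci of high level fewer. Loci were binned by their RPM per kilobase of transcript (RPKM) in the unmarked column of the other cross, so that the binning did not use the values compared. The median of loci at 10 to 30 RPKM was 21.2 unmarked and 33.8 marked in ColA9 X C24, and 10.8 and 23.3 in C24A9 X Col-0. At 100 to 300 RPKM it was 153 and 172, and 134 and 189. At 300 to 1000 RPKM the marked column was the lower one, at 413 against 302 and 417 against 371. At 1000 RPKM and over it was 1176 against 492 (61 loci) and 1947 against 701 (46 loci). The highest RPKM of any locus went from 58198 to 1927 and from 105700 to 1606.

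**Figure D1:**
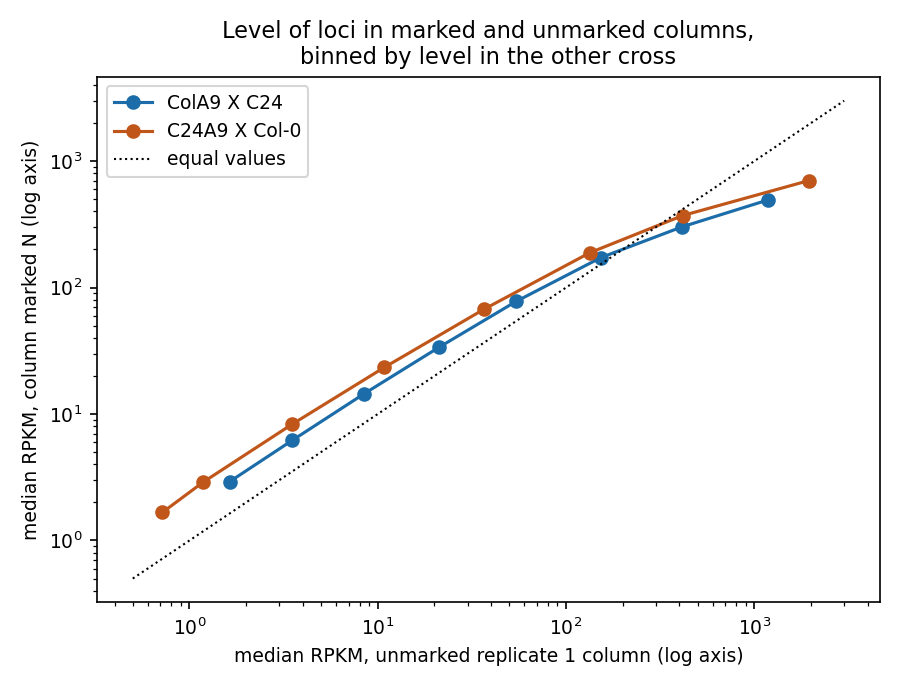
Median RPKM of loci in the unmarked replicate 1 column (x axis) and in the column marked N (y axis), both on log axes, for loci binned by their RPKM in the unmarked column of the other cross; each point is 1 bin of 1 cross and the line marks equal values. The points lie above the line at low levels and cross below it between the bins with unmarked medians of 153 and 413 (ColA9 X C24) and of 134 and 417 (C24A9 X Col-0).

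The share of loci called lower was larger at higher level when the level was taken from replicate 2. Replicate 2 is no part of the test, but it was nuclease-treated, so its levels may differ from those of untreated seed RNA. It was 2.11% of 2138 loci under 3 RPKM, 5.77% at 10 to 30, 32.9% at 100 to 300 and 67.9% of 252 loci at 300 and over. Among the 1076 loci at 100 RPKM and over, 442 were lower and 9 higher.

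The deepest fall was that of AT2G01021, a 102-base locus annotated as an uncharacterized protein that lies 1057 bases after the 18S ribosomal RNA locus AT2G01010 and 625 bases after AT2G01020. It had 345 RPM unmarked and 2.84 marked in ColA9 X C24, and 548 and 5.01 in C24A9 X Col-0. The kinds of column differ by 121-fold and 109-fold in RPM (log2 fold change −7.71 ± 0.34 (SE), adjusted p = 1.67e-108). In replicate 2 it stood at 1.41 and 58.7. In the fit to all 6 columns its adjusted p was 0.22, and 0.16 to 1.00 with 1 column left out. The 18S ribosomal RNA locus AT3G41768, in which 90.7% of 80-base windows are shared with AT2G01010, went from 2235 and 3662 to 107 and 85.4 (−5.77 ± 0.40, adjusted p = 5.67e-43). Reads of these copies cannot be placed with certainty. AT2G01021 was named after its values had been seen.

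Secreted and cell wall proteins made up most of the 12 largest falls past the threshold among nuclear protein-coding genes with a described product, 100 or more reads in each unmarked column and the same direction in RPM in both crosses. Among the loci that this rule leaves out were AT2G01021 and AT3G41768 above, the non-coding RNAs AT2G47895 (−4.81) and AT1G15405 (−4.50) and the uncharacterized AT3G23450 (−3.35). LTP6 (AT3G08770, chr3:2664069-2664888), a lipid transfer protein of a family that binds lipids outside the cell, was the most abundant locus of both unmarked columns, with 42252 and 76740 RPM. It had 771 and 889 in the marked columns, which is 54.8-fold and 86.3-fold lower in RPM (log2 fold change −6.97 ± 0.67, adjusted p = 3.22e-22). Replicate 2 held 11636 and 29634. The top transcript of the unmarked columns thus had a level in the marked columns like that of many other abundant transcripts.

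The next group were members, by annotated name, of the invertase and pectin methylesterase inhibitor family, in which inhibitors restrain enzymes that act on sucrose or on wall pectin. AT1G56100 went from 23223 and 36669 RPM to 834 and 901 (−5.94 ± 0.57). AT4G15750 went from 21090 and 12088 to 954 and 1176 (−4.78 ± 0.48). In replicate 2 neither was near its marked level, with 17750 and 25242 for AT1G56100 and 21534 and 26204 for AT4G15750. The marked values of both genes in both crosses lay within 834 to 1176, while their unmarked values ran from 12088 to 36669.

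GRP5, a glycine-rich wall protein, went from 7819 and 11421 RPM to 488 and 402 (−5.28 ± 0.46, adjusted p = 1.04e-26). The extensin-like gene AT3G49270 went from 862 and 11885 to 247 and 460 (−4.12 ± 0.47). The lipid transfer protein LP1 (AT2G38540) had 2395 and 2685 against 360 and 398 (−3.61 ± 0.35). AGP10, an arabinogalactan protein, is of lower level and fell from 546 and 742 to 120 and 106 (−3.36 ± 0.28, adjusted p = 5.85e-30). AT5G14920, a gibberellin-regulated GASA family protein, fell from 949 and 1943 to 238 and 321 (−3.16 ± 0.32). In each of these 5 genes both marked values were below both unmarked replicate 1 values. In replicate 2 of ColA9 X C24, AGP10 (37.3 RPM), AT5G14920 (107) and AT3G49270 (174) were below the marked values of that cross. GRP5 and LP1 were above theirs there. In replicate 2 of C24A9 X Col-0 all 5 genes were above their marked values, with 407, 395 and 2467 for AGP10, AT5G14920 and AT3G49270. With all 6 columns AGP10 (adjusted p = 0.44) and AT3G49270 (0.18) were not past the threshold.

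Enzymes and inhibitors of other kinds were among these 12 falls too. AT5G47350, of the alpha/beta-hydrolase superfamily, went from 16155 and 39832 to 1213 and 1461 RPM (−5.12 ± 0.55). AT2G38900, a serine protease inhibitor of the potato inhibitor I type, went from 3252 and 4883 to 395 and 461 (−4.09 ± 0.39). GILT (AT4G12960), related to the lysosomal thiol reductase induced by interferon in animals, went from 23487 and 5047 to 1357 and 1546 (−3.77 ± 0.46). It was the most abundant locus of replicate 2 of ColA9 X C24, with 48499.

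**Figure D2:**
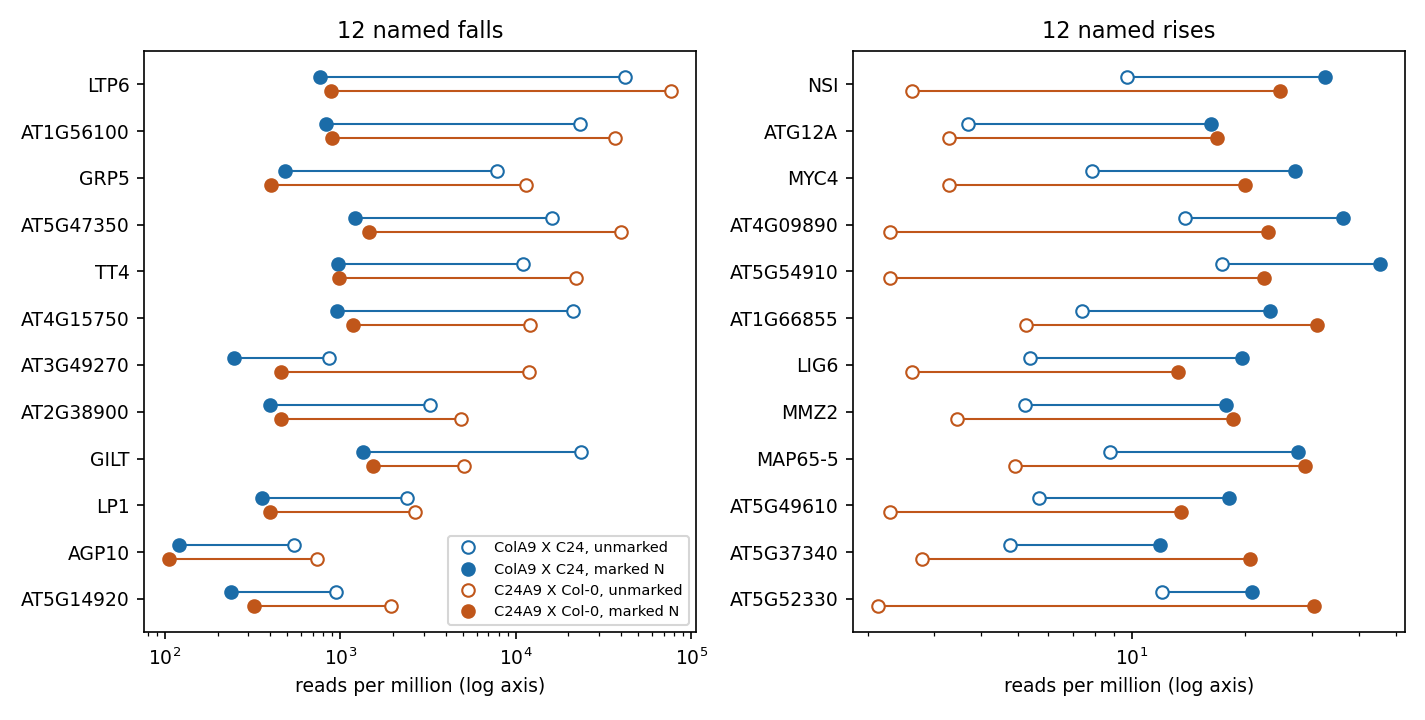
RPM (log axis) of the named loci with the largest falls and of those with the largest rises, in both crosses. Open points are the unmarked replicate 1 columns and filled points the columns marked N, and each point is 1 column. LTP6 goes from 42252 and 76740 to 771 and 889, and the rising loci reach 45.4 at most in any unmarked or marked column.

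Most enzymes that make flavonoids and tannins in the seed coat were lower. All 15 were tested, 11 were lower and 0 higher, and their median log2 fold change was −1.64, against 0.05 over all loci. With library totals alone it was −0.77, against 0.91, with 9 lower and 3 higher. DESeq2 called 12 lower and the fit to all 6 columns 11. Their RPM summed to 28889 and 52593 in the unmarked columns and to 11202 and 16106 in the marked ones. TT4, the chalcone synthase that opens the pathway, had 11042 and 22050 RPM unmarked and 974 and 989 marked (−4.85 ± 0.50, adjusted p = 1.13e-19). CHIL, a chalcone isomerase-like protein, had 2248 and 5232 against 796 and 1164 (−2.70 ± 0.37). TT5, the chalcone isomerase, had 1023 and 1433 against 601 and 831 (−1.64 ± 0.30).

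The other enzymes had smaller fold changes than TT4. C4H, the cinnamate hydroxylase upstream of the pathway, went from 2106 and 5735 to 1338 and 1889 RPM (−1.99 ± 0.37). DFR, which reduces dihydroflavonols, went from 3181 and 5781 to 1446 and 2177 (−2.14 ± 0.37). BAN, the anthocyanidin reductase of tannin synthesis, went from 2734 and 3482 to 1371 and 2131 (−1.72 ± 0.35). LDOX had 2462 and 2449 unmarked against 1456 and 2249 marked (−1.30 ± 0.33, adjusted p = 0.00189), and at 2249 it was among the highest levels of its marked column. GSTF12, a glutathione transferase for flavonoid transport, had 776 and 1927 against 493 and 816 (−1.81 ± 0.31). In each of these 5 genes the marked level was below the unmarked level of the same cross.

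Not every gene of the tannin layer moved so. FLS1, the flavonol synthase, had 73.9 and 32.8 RPM unmarked and 131 and 82.5 marked, a log2 fold change of 0.21 ± 0.21 with an adjusted p of 0.64. AHA10, a proton pump of the tannin vacuole, had 279 and 337 against 431 and 614 (−0.12 ± 0.24, adjusted p = 0.86). The regulator TT8 had 150 and 233 against 223 and 389 (−0.20 ± 0.22, adjusted p = 0.69). The ovule and seed coat MADS-box gene STK had 737 and 148 against 724 and 417 (−0.13 ± 0.25, adjusted p = 0.84). With library totals alone these last 3 had log2 fold changes of 0.75, 0.66 and 0.73.

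Genes of dividing and growing cells were lower in large part relative to the typical locus, though with library totals alone the medians of all these lists except ubiquitins lay above 0. Of 322 ribosomal proteins tested 138 were lower and 0 higher, with a median of −0.47 (0.39 with library totals, where 36 were lower and 111 higher). Of 42 histones 26 were lower and 0 higher, with a median of −0.84 (0.03 with library totals, 8 lower and 3 higher). Ubiquitins had 6 of 8 lower (median −1.92, and −1.06 with library totals), tubulins and actins 7 of 19 (−0.49 and 0.37) and translation elongation factors 5 of 23 (−0.17 and 0.69). DESeq2 called 118 of the ribosomal proteins and 23 of the histones lower, and the fit to all 6 columns 65 and 14. UBQ10, a polyubiquitin, went from 1327 and 1160 to 379 and 283 RPM (−2.78 ± 0.30). An elongation factor 1-alpha gene, AT5G60390, went from 3345 and 4265 to 898 and 1174 (−2.74 ± 0.36). The copies of this gene are nearly identical, so reads could be divided among them.

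The histone H3 gene AT4G40030 went from 532 and 746 to 348 and 457 (−1.52 ± 0.27), and the H2B gene HTB4 from 716 and 450 to 385 and 347 (−1.50 ± 0.26). The tubulin TUA4 went from 909 and 480 to 482 and 351 (−1.55 ± 0.27). Summed over the whole ribosomal protein list, RPM moved little, from 65665 and 62901 to 55930 and 59912. Histones summed to 6806 and 5921 unmarked and 4962 and 4619 marked. On this scale the marked sum was 0.73 to 0.95 times the unmarked one over both lists and crosses. Replicate 2 lay below the marked sums in both crosses, with 53942 and 52094 for ribosomal proteins and 3458 and 3737 for histones.

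Read against their level, histones and ribosomal proteins had larger shares lower than all abundant loci together. At 100 RPKM and over in replicate 2, 15 of 16 histones and 107 of 153 ribosomal proteins were lower, against 442 of 1076 loci in all. At 30 to 100 RPKM, 11 of 16 histones were lower, against 11.1% of all loci. Reads of near-identical histone copies could be divided among them. These shares are descriptions and no difference between lists was tested.

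Wall and surface proteins were also lower in number relative to the typical locus. Arabinogalactan proteins, heavily glycosylated proteins of the cell surface, had 18 of 35 lower with a median of −1.11, and of −0.25 with library totals alone. Glycine-rich and extensin-like proteins had 15 of 36 lower, lipid transfer proteins 13 of 35, invertase and pectin methylesterase inhibitors 9 of 40 and expansins 3 of 18. The medians of these 4 lists were −0.55, −0.75, −0.43 and −0.52, and with library totals alone they turned to 0.28, 0.05, 0.39 and 0.36. None of these 5 lists had a higher member on the TMM scale, and at an unadjusted p under 0.05 edgeR had 2 higher, both lipid transfer proteins. With library totals alone they had, in the order given, 10, 9, 5, 4 and 0 lower and 2, 4, 6, 8 and 1 higher. The fit to all 6 columns called 6 arabinogalactan, 7 glycine-rich or extensin-like and 8 lipid transfer proteins lower. AGP15 went from 1977 and 1324 to 365 and 405 RPM (−2.94 ± 0.32), and the fasciclin-like FLA10 from 1116 and 1002 to 516 and 520 (−1.89 ± 0.29). LTP3 went from 2217 and 1774 to 682 and 768 (−2.32 ± 0.32).

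Lipid transfer proteins summed to 49344 and 83516 RPM unmarked and to 3821 and 4235 marked, and the invertase and pectin methylesterase inhibitors to 50414 and 52800 against 5948 and 6170. In replicate 2 these lists summed to 17590 and 35781 and to 45040 and 56354. Arabinogalactan proteins summed to 6775 and 5614 unmarked, 2781 and 2757 marked and 1526 and 3238 in replicate 2. The inhibitor list was drawn by the family name, so members that are not inhibitors could be in it. Pectin-modifying enzymes, which include targets of pectin methylesterase inhibitors, had 3 lower and 2 higher of 48, with a median of −0.02. These enzymes summed to 1524 and 1805 RPM unmarked and 2191 and 2692 marked.

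GASA peptides are small secreted proteins that respond to gibberellin. Of 7 tested, 3 were lower and 0 higher, and with library totals alone 3 were lower and 3 higher. GASA1 went from 2454 and 1685 to 473 and 557 RPM (−2.85 ± 0.33), and AT2G14900 from 1033 and 1433 to 441 and 479 (−2.27 ± 0.30). AT2G30810 had 372 and 277 unmarked and 392 and 621 marked, with a log2 fold change of −0.24 ± 0.24 (adjusted p = 0.65).

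Photosynthesis genes, which are active in the green seed coat and later embryo and also in leaf, had 31 of 56 lower and 0 higher, with a median of −0.87. With library totals alone 13 were lower and 9 higher. The fit to all 6 columns called 11 of them lower. Their RPM summed to 3234 and 5177 unmarked, 2800.5 and 3758 marked and 2191 and 5634 in replicate 2. RBCS1A, a Rubisco small subunit, went from 489 and 674 to 289 and 418 RPM (−1.59 ± 0.26). CAB2, a chlorophyll-binding protein with near-identical neighbours, went from 67.9 and 216 to 39.2 and 74.2 (−2.05 ± 0.22, not past the threshold with all 6 columns, adjusted p = 0.11). These genes were lower at moderate levels as well: at 10 to 30 RPKM in replicate 2, 8 of 14 were lower, against 5.77% of all loci, and at 30 to 100 RPKM 15 of 20, against 11.1%.

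**Figure D3:**
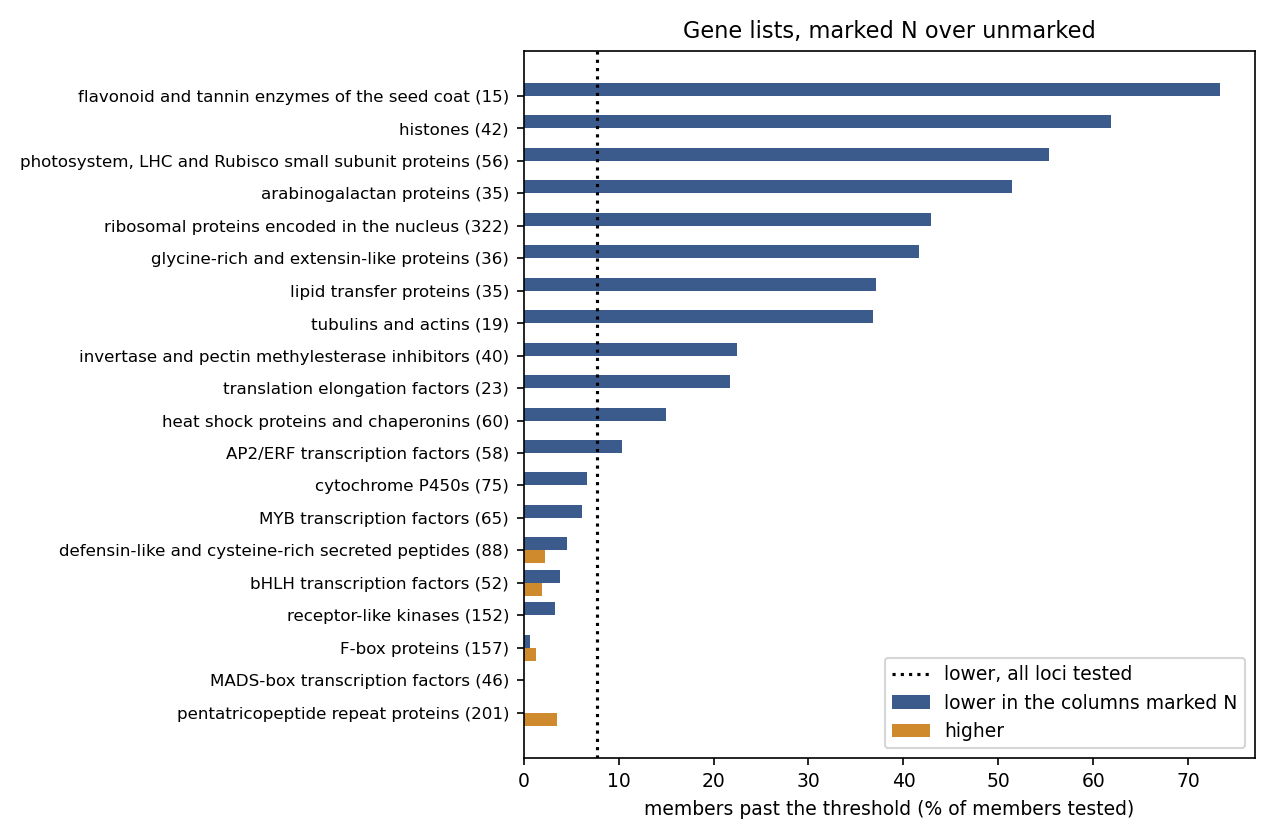
Percent of the tested members of a selection of gene lists (number tested in parentheses) that were lower or higher in the columns marked N at an adjusted p under 0.05 (x axis). The dotted line marks the 7.75% of all loci tested that were lower, and 0.93% of all loci were higher. Flavonoid and tannin enzymes (11 of 15), histones (26 of 42) and photosynthesis genes (31 of 56) have the largest shares lower among the lists drawn. Ubiquitins (6 of 8) are not drawn.

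Defensin-like and other cysteine-rich peptides are abundant in young seeds, where many are made in the endosperm or the tissues around it. Few of them were lower. Of 88 tested 4 were lower and 2 higher, with a median of 0.14. With library totals alone 0 were lower and 52 higher, beside 8836 of all 16346 loci higher. At 100 RPKM and over 2 of 30 were lower, against 442 of all 1076 loci. AT5G55132 had 246 and 117 RPM unmarked and 251 and 355 marked (−0.05 ± 0.22, adjusted p = 0.94). The thionin THI2.1 had 5121 and 434 unmarked and 656 and 462 marked (−2.30 ± 0.37, adjusted p = 7.65e-08) and was lower in RPM in ColA9 X C24 alone. With all 6 columns its adjusted p was 0.25.

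Regulatory gene families, most of them at low level, were near the typical locus, whose own value with library totals alone was 0.91. MADS-box factors, which direct ovule and endosperm identity, had 0 of 46 past the threshold in either direction with a median of 0.02 (edgeR). At an unadjusted p under 0.05, 2 were higher and 0 lower, and DESeq2 called 0. NAC and WRKY factors had 0 of 30 and 0 of 20 by edgeR and by DESeq2, with 1 NAC factor lower and 1 WRKY factor higher at an unadjusted p under 0.05. Of the MYB factors 4 of 65 were lower, of the bHLH factors 2 of 52, with 1 higher, and of the AP2/ERF factors 6 of 58. Receptor-like kinases had 5 of 152 lower and 0 higher, and F-box proteins 1 of 157 lower and 2 higher. Of these families AP2/ERF alone had a share lower above the 7.75% of all loci.

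The imprinted PHE1, a MADS-box gene of the endosperm, had 42 and 66 reads unmarked and 27 and 61 marked, which is 6.46 and 10.8 RPM against 6.96 and 18.0. Its log2 fold change was −0.43 ± 0.37 (adjusted p = 0.58), and 0.45 with library totals alone. FWA, an imprinted endosperm homeodomain gene, had 164 and 202 reads unmarked and 197 and 209 marked (0.08 ± 0.22, adjusted p = 0.90). Of the study's list of PEGs (genes expressed mainly from the paternal allele) from the literature, 50 of 65 were tested, 2 were lower and 1 higher, with a median of 0.19, and with library totals alone 0 were lower and 27 higher. Their RPM summed to 641 and 474 unmarked and to 1109 and 1149 marked. Of the study's endosperm-specific genes 355 were tested, 17 were lower and 4 higher, with a median of 0.09, and with library totals alone 2 were lower and 128 higher. With library totals alone 8836 of all 16346 loci tested were higher and 251 lower. The share of PEGs higher was near that of all loci, and the share of endosperm-specific genes higher was below it. The study chose both lists.

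Pentatricopeptide repeat proteins, which process RNA in plastids and mitochondria, had more higher members on the TMM scale than any other list by count. By share, at 3.48%, they were below the pectin-modifying enzymes (2 of 48, 4.17%). Of 201 tested 7 were higher and 0 lower by edgeR, with a median of 0.38, against 0.93% higher among all loci. With library totals alone 106 were higher and 0 lower, beside 8836 of all loci higher. At an unadjusted p under 0.05, 25 were higher and 3 lower, and DESeq2 called 0 in either direction, as did the fit to all 6 columns. Their RPM summed to 1696 and 754 in the unmarked columns and 3091 and 2251 in the marked ones. The best-represented member, PNM1, had 83.1 and 24.7 against 149 and 79.8 (0.39 ± 0.21, adjusted p = 0.30).

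Genes that rose were of mixed function. The median level in replicate 2 was 28.0 RPM for the 152 higher loci and 22.0 for all loci tested. Those described here are the 12 largest rises among nuclear protein-coding genes with a described product and 10 or more reads in each unmarked column. NSI, an acetyltransferase, had 63 and 16 reads in the unmarked columns and 126 and 84 in the marked ones. That is 9.70 and 2.62 RPM against 32.5 and 24.7 (log2 fold change 1.51 ± 0.34, adjusted p = 0.000235). It remained higher in the fit to all 6 columns, at 1.48 ± 0.36 with an adjusted p of 0.0486. ATG12A, a ubiquitin-like protein of autophagy, had 24 and 20 reads against 63 and 57 (1.38 ± 0.41, adjusted p = 0.0124). MYC4, a bHLH factor of jasmonate signalling, had 51 and 20 reads against 105 and 68 (1.30 ± 0.36, adjusted p = 0.00485).

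AT4G09890, of the DUF3511 family, had 90 and 14 reads unmarked and 141 and 78 marked (1.29 ± 0.33). The RNA helicase AT5G54910 had 113 and 14 against 176 and 76 (1.24 ± 0.31). AT1G66855, with an X8 carbohydrate-binding domain, had 48 and 32 against 90 and 105 (1.23 ± 0.33). The microtubule-bundling protein MAP65-5 had 57 and 30 against 107 and 98 (1.22 ± 0.33). Their unmarked counts in C24A9 X Col-0 were 14 to 32 reads, so the rise there rests on small numbers.

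The remaining 5 of the 12 largest rises were the DNA ligase LIG6, the ubiquitin-conjugating variant MMZ2, the F-box gene AT5G49610, the ZPR1 zinc-finger gene AT5G37340 and the TRAF-like gene AT5G52330. Their log2 fold changes were 1.20 to 1.23 and their adjusted p-values 0.0103 to 0.0400. In MMZ2 75.7% of 80-base windows are shared with the locus AT1G70650. With all 6 columns NSI was the 1 rise of these 12 past the threshold, and the adjusted p of the other 11 was 0.095 to 0.42. Over all 152 higher loci the median count was 140.5 and 45 reads unmarked and 181.5 and 121.5 marked.

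No locus was silent in one kind of column and well represented in the other. Of the loci with 0 reads in both columns of one kind, 0 had 10 or more reads in both columns of the other kind. The highest summed count was 18 marked reads among 1354 loci silent in both unmarked columns, and 32 unmarked reads among 1399 loci silent in both marked columns.

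Base composition went with the direction of change. The median G and C content of the transcript was 43.0% for lower loci, 39.5% for higher loci and 41.4% for all. The share called lower was 3.06% in transcripts under 36% G and C, 4.96% at 40 to 42%, 19.8% at 44 to 46%, 41.6% at 46 to 48% and 55.8% of the 86 loci at 48% and over. The share called higher was 3.32% under 36% and 0 at 44% and over. The lower loci were also shorter, with a median transcript of 1281 bases against 1762 for all, and 29.6% of them had 1 exon against 13.7%. Length, exon number and level move with composition, and their separate parts were not tested.

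The richest 100-base stretch of the coding sequence, the kind of window printed above, separated them further. Its median was 60% for lower loci, 51% for higher loci and 55% for all. A window of 60% or more was present in 632 of 1242 lower loci, in 4 of 150 higher loci and in 2794 of 16061 loci tested that have a coding sequence this long. Lower loci of low level had such a window more often than abundant ones. Under 3 RPKM in replicate 2 it was present in 37 of 40 lower loci, against 21.6% of all loci of that level, and at 300 RPKM and over in 19.5% of the lower loci, against 13.2%.

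The lists followed the same order in part. The median richest window was 63% for arabinogalactan proteins, 61% for glycine-rich and extensin-like proteins and 60.5% for photosynthesis genes. At 10 to 30 RPKM in replicate 2, 8 of 12, 2 of 15 and 8 of 14 members of these lists were lower, in that order. The median richest window was 48% for the cysteine-rich peptides, 52% for pentatricopeptide repeat proteins and 53% for MADS-box factors. Ribosomal proteins, at 54%, were near the median of all loci and were lower in large number all the same. The part of composition in the change of any list was not tested.

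**Figure D4:**
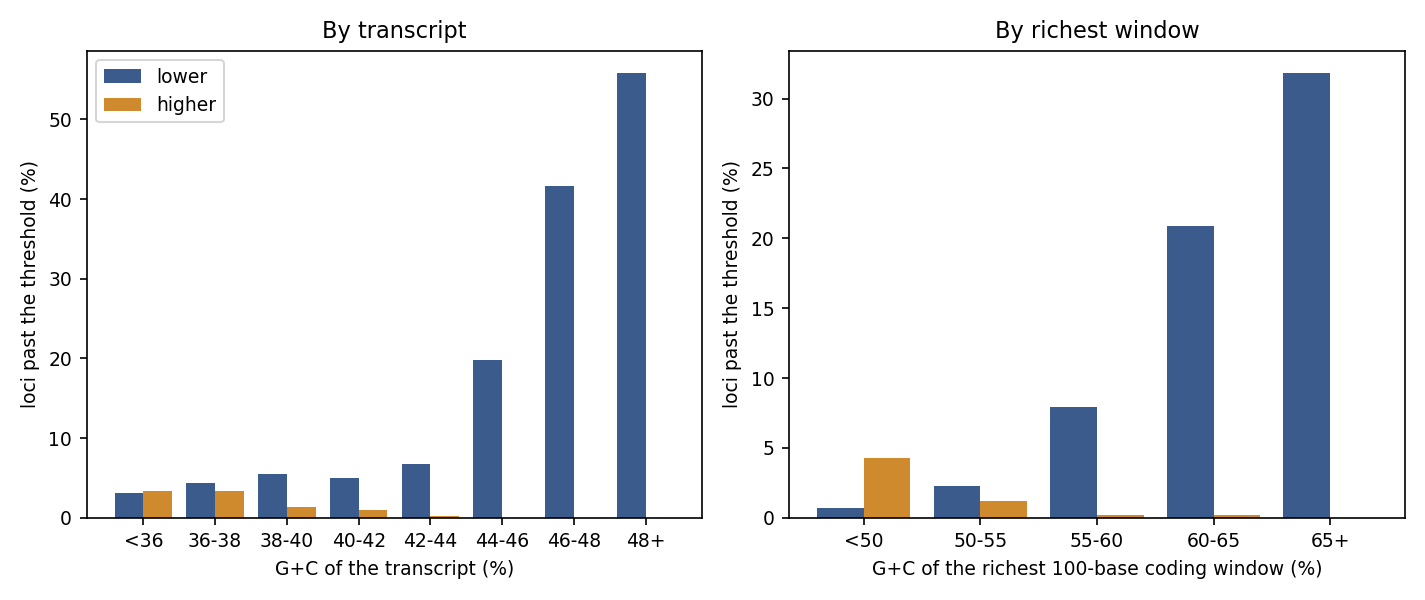
Percent of loci tested that were lower or higher in the columns marked N (y axis) by G and C content of the transcript and by G and C content of its richest 100-base coding window (x axes). The share lower rises from 3.06% to 55.8% across transcript bands and from 0.729% to 31.8% across window bands, while the share higher falls from 3.32% and 4.30% to 0.

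The crosses also differed from each other by composition before the marked columns are considered. Over loci with 10 or more reads in all 6 columns, the centred log2 ratio of ColA9 X C24 over C24A9 X Col-0 had a median of 0.46 in transcripts of 36 to 38% G and C and of −1.05 at 48% and over in the unmarked columns. In the marked columns the same medians were 0.06 and −0.39, and in replicate 2 they were 0.05 and −1.27. Marked over unmarked, the median went from 0.05 to −0.72 in ColA9 X C24 and from 0.40 to −1.26 in C24A9 X Col-0. So the larger changes of C24A9 X Col-0 came with a steeper gradient over composition, and the part of either in the other was not tested.

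Differences between the crosses were smaller in the marked columns, for the most abundant transcripts and for those of lower rank. Among the 100 loci with most reads in replicate 2, 71 had a cross ratio closer to 1 in the marked than in the unmarked columns, and 66 kept its direction. Ratios of 4-fold or more numbered 8 in the unmarked and 1 in the marked columns, and ratios of 2-fold or more 19 and 3. The SD of the log2 ratio was 1.08 unmarked and 0.47 marked. Across these 100 loci, which share libraries and are not replicates, the 2 log2 ratios had a Pearson correlation of 0.73 and a slope of 0.32 marked on unmarked. Over ranks 501 to 2000 the slope was 0.56. The median absolute log2 ratio went from 0.51 unmarked to 0.28 marked in the top 100, and from 0.63 to 0.32 over ranks 2001 to 6000.

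The contrast between crosses differed with the kind of column in several abundant genes. GILT was 4.65 times as high in ColA9 X C24 as in C24A9 X Col-0 in the unmarked columns, and in the marked columns C24A9 X Col-0 was the higher by 1.14 times. DELTA-VPE, a vacuolar processing enzyme of the inner seed coat, had 8422 and 2105 RPM unmarked, a ratio of 4.00, and 2010 and 2378 marked, where C24A9 X Col-0 was higher by 1.18 times. Its log2 fold change was −1.81 ± 0.38 (adjusted p = 7.34e-05), made up of −2.74 in ColA9 X C24 and −0.88 in C24A9 X Col-0 on the TMM scale, while on the RPM scale C24A9 X Col-0 was 0.18 higher in the marked column.

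THI2.1 was 11.8 times as high in ColA9 X C24 unmarked and 1.42 times marked. KAT5, a thiolase of fatty acid breakdown, had 2161 and 8299 RPM unmarked and 1225 and 1915 marked (−2.33 ± 0.39), so C24A9 X Col-0 was higher by 3.84 times unmarked and 1.56 times marked. AT3G49270 was higher in C24A9 X Col-0 by 13.8 times unmarked and 1.87 times marked. The 1 locus that kept a ratio over 4-fold was the pseudogene AT4G06477, at 10.5 times unmarked and 5.81 times marked in favour of C24A9 X Col-0, and its own fall (−2.55 ± 0.30) had an adjusted p of 0.80 with all 6 columns. With 1 column per cross and kind none of these ratios has a replicate check.

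**Figure D5:**
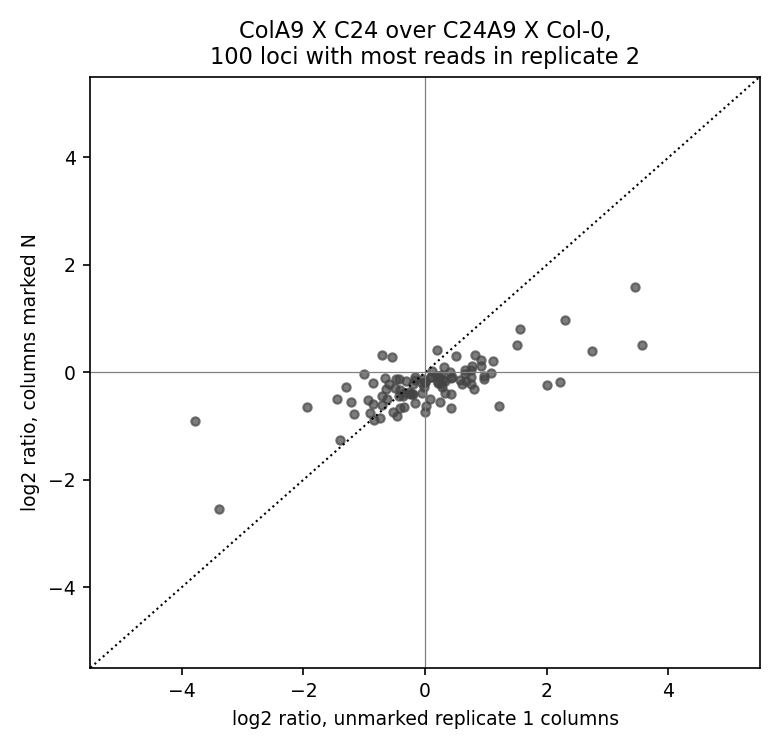
Log2 ratio of RPM of ColA9 X C24 over C24A9 X Col-0 in the unmarked replicate 1 columns (x axis) and in the columns marked N (y axis) for the 100 loci with most reads in replicate 2; each point is 1 locus and the dotted line marks equal ratios. The points lie flatter than the line, with an SD of 1.08 along x and 0.47 along y.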

How the data were processed

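The deposited table holds raw counts of reads per locus, which the authors made by aligning to TAIR10 cDNA with BWA (version 0.5.8c in the paper's methods) and SAMtools 0.1.7 (submitters' processing notes). The authors' methods state that replicate 2 of both crosses was treated with a duplex-specific nuclease and amplified again before sequencing. They do not mention the mark N, so replicate 2 is given side by side only. Use of strand in counting is not given in the sources used here, and overlapping or near-identical loci can share reads.

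Loci with 10 or more reads in 2 or more of the 4 replicate 1 columns were tested with edgeR 4.0.16 in R 4.3.3 (quasi-likelihood test, robust, TMM, cross as a block, 1 residual degree of freedom), with Benjamini-Hochberg adjustment over all 16346 loci and a threshold of 0.05. Standard errors are the fold change divided by the root of F. DESeq2 1.42.0, other scalings and filters, no block, and a fit to all 6 columns with each replicate 1 column left out were the alternatives. The column names pair the columns by cross, which is the block, and replicate numbers pair nothing else.

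In simulated counts, 50.0% of 2-fold and 99.4% of 4-fold changes (log2 of 1 and 2) were recovered, and 3.87% of calls were false. The simulation changed 200 loci per draw, up or down at random, under 1 common dispersion. In the data the calls were mostly falls and more frequent among abundant loci, so these rates may not hold for them. Gene names, coordinates, exons and sequences came from RefSeq TAIR10.1, which matched 32835 of the 33602 loci. Gene lists were drawn from its product descriptions, and no list was tested. Described loci were the 12 largest falls and 12 largest rises among nuclear protein-coding genes with a symbol or described product (not uncharacterized), moving the same way in RPM in both crosses, with 100 (falls) or 10 (rises) reads in each unmarked column, the 10 most abundant and the 3 most abundant of each list by replicate 2. A few were added after their values were seen. The columns, lists and tests were chosen with earlier results of these data known.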

Additional observations from a re-analysis of the deposited data

Results flagged for a closer look

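AT3G29570, an uncharacterized locus of the study's endosperm-specific list, moved in opposite directions in the crosses. It had 31 reads in the unmarked and 38 in the marked column of ColA9 X C24, and 2630 and 850 in C24A9 X Col-0. On the TMM scale that is 0.36 and −1.84 (log2). The locus was lower in the joint test (−1.10 ± 0.27, adjusted p = 0.0012, and 0.46 with all 6 columns), but the difference between the crosses was not tested, since each cross has 1 column of each kind. In both kinds of column its level was higher in C24A9 X Col-0, by 90.4 times unmarked and 25.5 times marked. In replicate 2 it had 3.11 and 211 RPM.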

How the results depend on the processing

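Counts of calls depended on the processing, and the cause was not tested. Of the 152 higher and 1266 lower loci, library totals alone gave 8836 and 251, DESeq2 1 and 767, no replicate block 0 and 0, and all 6 columns 1 and 412. Leaving out 1 replicate 1 column from the 6 gave 0 to 2 higher and 11 to 159 lower (111 without unmarked ColA9 X C24, 16 without unmarked C24A9 X Col-0). DESeq2 size factors, upper-quartile scaling and the other filters stayed within 1.5 times. Of 57 called loci named, 36 were still past the threshold with all 6 columns and 0 without the block. Of 36 list medians taken relative to the median of all loci, 20 had a size of 0.2 or more (log2) and 0 of these turned sign in any setting, while on their own scale several turned with library totals.

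The unmarked share of the top 100 loci was 4.16 (ColA9 X C24) and 3.98 (C24A9 X Col-0) times the marked one. For 10 loci it was 15.1 and 19.3 times, for 1000 loci 1.73 and 1.69, ranked in the column itself 3.46 and 3.78, ranked in replicate 2 of the other cross 3.78 and 3.53, and 4.07 in ColA9 X C24 for nuclear protein-coding loci. The gain in loci at equal depth in ColA9 X C24 was 874 at 5 reads and 321 at 1 read. Signs turned with library totals for AT5G55132 (0.82), AT2G30810 (0.62), STK (0.73), AHA10 (0.75), TT8 (0.66) and PHE1 (0.45), and by RPM for DELTA-VPE (0.18) and THI2.1 (0.091) in C24A9 X Col-0 alone and AT3G29570 (1.04) in ColA9 X C24 alone. With 1 column left out of the 6, log2 fold changes ranged from −0.57 to 0.41 for AT5G55132 (0.33 without marked ColA9 X C24), −0.62 to 0.29 for STK (0.23), −0.47 to 0.20 for AHA10 (0.059), −0.28 to 0.38 for FWA and −1.72 to 0.18 for AT3G29570 (0.0093 without unmarked C24A9 X Col-0). Unmarked counts of the higher loci had a median of 45 reads in C24A9 X Col-0.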

Other observations

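Of 14 mitochondrial loci tested 4 were lower and 0 higher by edgeR (DESeq2 called 3 lower), with a median log2 fold change of −0.05. ATMG01390 had 498 and 1127 RPM in the unmarked columns and 134 and 182 in the marked ones (−3.13 ± 0.29, adjusted p = 6.95e-24). ATMG00020 had 413 and 770 against 279 and 356 (−1.71 ± 0.27), and ATMG00030 had 40.3 and 129 against 19.1 and 30.3 (−2.49 ± 0.23). The marked values of these 3 loci were below the unmarked value of the same cross, and with all 6 columns ATMG01390 (adjusted p = 0.61) and ATMG00020 (0.28) were not past the threshold. Of 14 plastid loci 0 were past the threshold by edgeR or DESeq2, with 1 higher and 0 lower at an unadjusted p under 0.05 (edgeR), and their median was 0.46. ATCG00470 had 26 and 25 reads unmarked and 39 and 54 marked (0.78 ± 0.42, adjusted p = 0.30), against 700 and 1997 in replicate 2.

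Chaperones are abundant in dividing tissue, and 9 of 60 heat shock proteins and chaperonins were lower (median −0.16), among them BIP1, a chaperone of the endoplasmic reticulum, with 1509 and 1265 RPM unmarked against 797 and 826 marked (−1.63 ± 0.30). Cytochrome P450s had 5 of 75 lower (−0.08). Of 3 seed storage and oleosin genes tested 1 was lower, and the list summed to 39.2 RPM at most in any of the 4 columns. Pseudogenes had 11 of 140 lower and 1 higher, and non-coding RNA loci 7 of 102 lower and 1 higher. The shares lower of these last 2 lists and of the P450s, at 7.86%, 6.86% and 6.67%, are about the 7.75% of all loci.

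Not all falls were in abundant transcripts. Among loci under 3 RPKM in replicate 2, 45 of 2138 were lower, a count not limited to loci with 10 or more reads in all 4 columns. The pair described here was chosen after its values were seen, and both loci passed the read minimum in all 4 columns. ADT6, an arogenate dehydratase of phenylalanine synthesis, had 56 and 135 reads unmarked and 15 and 23 marked, which is 8.62 and 22.1 RPM against 3.87 and 6.77 (−2.35 ± 0.38, adjusted p = 5.22e-08, and 0.039 with all 6 columns, or 0.050 to 1.00 with 1 of these left out). SPL3, a factor of the floral transition, had 70 and 59 reads against 22 and 14, or 10.8 and 9.67 RPM against 5.67 and 4.12 (−1.91 ± 0.42, adjusted p = 0.000158). It was not past the threshold with all 6 columns (adjusted p = 0.25) or with library totals alone (0.056). In both loci the marked RPM were below the unmarked RPM of either cross.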
